A study of Homo sapiens with 6 samples.

Results

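The aryl hydrocarbon receptor gene AHR was read together with its partners ARNT and ARNT2, its repressor AHRR, and 5 genes it is known to switch on, CYP1A1, CYP1A2, CYP1B1, TIPARP and NQO1. These 9 genes were taken by symbol from the 33451 genes of the count table, and 7 of them had enough reads to be tested among 18183 genes. The libraries were stranded mRNA of the human breast cancer line MDA-MB-453, 3 libraries for each group. Cells of the experiment group (25(OH)D) received the circulating form of vitamin D at 100 nM for 5 days, and cells of the control group were cultured for the same 5 days with the alcohol solvent. Both groups were otherwise grown alike, and no genetic change is named for either. The work rests on a single line, and the study's methods call the libraries biological replicates without describing how the cultures were separated. The p-values of single genes therefore set a difference against the spread between these libraries, estimated with help from all genes tested. They speak for these libraries only.

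AHR is a ligand-activated transcription factor of the bHLH-PAS family that waits in the cytosol with HSP90 and its co-chaperone p23. After binding a ligand such as a dioxin, a polycyclic hydrocarbon or a tryptophan metabolite, it enters the nucleus, pairs with ARNT and binds DNA elements with the core GCGTG. Its targets include the CYP1 monooxygenases, which break down many of these ligands, and a pair of inhibitors, AHRR and TIPARP, that limit the receptor in turn. In breast cells the CYP1 enzymes also hydroxylate oestrogens.

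Reference promoters are shown first, because the AHR response element is the sequence that joins the receptor to its targets. RefSeq windows (GRCh38.p14) of 300 bases, 250 before and 50 from the transcript start, were found for 7 members, in 10 windows. Each is written 5′ to 3′ on the strand of the gene, and capitals mark the core GCGTG, or CACGC where the core lies on the opposite strand. The windows of AHR, CYP1A1 and NQO1 and the first windows of AHRR and TIPARP hold the core and are given here.
AHR, chr7:17298402-17298701: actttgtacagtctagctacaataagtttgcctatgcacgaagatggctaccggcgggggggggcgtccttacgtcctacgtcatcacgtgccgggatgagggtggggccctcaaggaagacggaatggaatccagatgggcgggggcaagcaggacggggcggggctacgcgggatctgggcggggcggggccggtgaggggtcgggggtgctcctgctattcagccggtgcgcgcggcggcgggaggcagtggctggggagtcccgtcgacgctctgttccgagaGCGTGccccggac
AHRR, chr5:321464-321763: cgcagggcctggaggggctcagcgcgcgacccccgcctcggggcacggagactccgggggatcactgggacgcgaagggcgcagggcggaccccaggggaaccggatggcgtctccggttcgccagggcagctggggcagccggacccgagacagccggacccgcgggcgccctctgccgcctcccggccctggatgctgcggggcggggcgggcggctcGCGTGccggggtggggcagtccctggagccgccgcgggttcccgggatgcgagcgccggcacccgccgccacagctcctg
CYP1A1, chr15:74725479-74725778: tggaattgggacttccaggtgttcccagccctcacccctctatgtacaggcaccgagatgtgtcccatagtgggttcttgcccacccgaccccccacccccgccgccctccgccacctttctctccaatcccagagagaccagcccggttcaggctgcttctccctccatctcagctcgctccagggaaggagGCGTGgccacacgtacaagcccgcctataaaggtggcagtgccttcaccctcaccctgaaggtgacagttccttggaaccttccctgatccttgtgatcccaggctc
NQO1, chr16:69726511-69726810: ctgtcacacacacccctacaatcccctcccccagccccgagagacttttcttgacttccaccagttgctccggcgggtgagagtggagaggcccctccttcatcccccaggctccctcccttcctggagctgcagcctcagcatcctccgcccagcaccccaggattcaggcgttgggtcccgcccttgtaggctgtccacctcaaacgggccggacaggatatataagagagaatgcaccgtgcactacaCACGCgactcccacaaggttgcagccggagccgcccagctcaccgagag
TIPARP, chr3:156674340-156674639: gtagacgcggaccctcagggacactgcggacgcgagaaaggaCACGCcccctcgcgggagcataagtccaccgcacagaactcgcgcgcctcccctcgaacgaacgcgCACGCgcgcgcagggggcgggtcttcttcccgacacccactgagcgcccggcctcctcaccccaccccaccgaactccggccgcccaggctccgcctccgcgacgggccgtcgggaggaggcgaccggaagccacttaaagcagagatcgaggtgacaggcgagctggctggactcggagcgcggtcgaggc
AHR, AHRR and TIPARP lie on the plus strand, and CYP1A1 and NQO1 on the minus strand. Counting from 1 at the transcript start and from -1 before it, the core lay at 38 to 42 in AHR, at -30 to -26 in AHRR, at -57 to -53 in CYP1A1 and at 2 to 6 in NQO1. TIPARP held 2 copies, at -208 to -204 and at -142 to -138. The second start of AHRR (chr5:322360-322659, plus strand) also held 2 copies, at -247 to -243 and at -42 to -38. In all, 6 of the 10 member windows held GCGTG on either strand, against 36.5% of 35116 RefSeq promoter windows. The longer form TNGCGTG, which contains the core, was found in AHRR and NQO1 and in 5.51% of all windows. The antioxidant response element core TGACNNNGC, bound by NRF2 with small MAF proteins, was found at the promoter of ARNT alone among these windows and in 13.3% of all. With the window cut to the 250 bases before the start, 4 member windows held GCGTG, against 32.2% of all, and only AHRR kept the longer form, against 4.52% of all, since the match in NQO1 lies after the start. A match of letters describes the window and does not show binding. Sequence further than 250 bases before a start was not searched, so a window without a match does not speak for elements there. The starts of NQO1 (69726951) and TIPARP (156673235) used for the counts lie outside their windows.

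Facts of the whole series that touch these genes are few. Totals ran from 33268860 to 40928176 counts per library, at which 3 counts are worth 0.0720 to 0.0921 CPM, counts scaled to a library of standard size with the edgeR TMM factors. RPKM, the unit used below to set one gene beside another, divides the counts by gene length and library total. Unless another fit is named, fold changes below come from the edgeR fit with TMM factors. They therefore differ slightly from the quotient of the RPKM means printed beside them. Genes of the mitochondrial genome took 7.85% to 7.99% of the counts in control and 8.89% to 9.24% in 25(OH)D. The markers of luminal breast cells were abundant, with summed levels of 4365 to 4501 CPM in control and 4524 to 4556 CPM in 25(OH)D. Of 8 markers, 4 rose and 3 fell, GATA3 the most clearly among the latter (-0.80 on the log2 scale). Of all genes tested, 17.3% rose and 16.5% fell by the same rule, given below. Of 12 markers of leukocytes, endothelium, fibroblasts and basal cells, 11 were listed and 3 were tested. CD3E and MS4A1 had at most 3 counts in every library, and the summed level was 37.7 to 39.9 CPM in control and 33.6 to 35.3 CPM in 25(OH)D, most of it COL1A1 (1119 to 1604 counts). COL1A1 fell by 0.18 on the log2 scale, and TP63 fell from 12 to 26 counts down to 2 or 3. The other basal markers did not fall. KRT14 had 1 to 6 counts in control and 8 to 24 in 25(OH)D and was not tested. KRT5 had 2 to 10 counts in control and 3 to 18 in 25(OH)D (log2 fold change 1.21, adjusted p = 0.201).

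Of the 7 members tested, 5 were higher in 25(OH)D, AHR, AHRR, CYP1A1, CYP1B1 and NQO1, and none was lower. ARNT and TIPARP did not pass the test, and ARNT2 and CYP1A2 were too weakly expressed to enter it. Over all genes tested 17.3% were higher and 16.5% lower at an adjusted p under 0.05 (edgeR's quasi-likelihood test, Benjamini-Hochberg over 18183 genes). At the study's limits, a log2 fold change beyond 1 with an unadjusted p under 0.05, AHR, AHRR and CYP1A1 were higher and no member was lower, while 4.02% of all genes were higher and 2.63% lower. The groups did not overlap for 6 of the 7 members, ARNT being the exception, and for 45.7% of all genes. The median log2 fold change was 0.67 over the 7 members and -0.011 over all genes tested. AHR and CYP1A1 had been reported from these data before the members were chosen. The counts and the median include both, so they describe the set and do not test it.

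**Figure D1:**
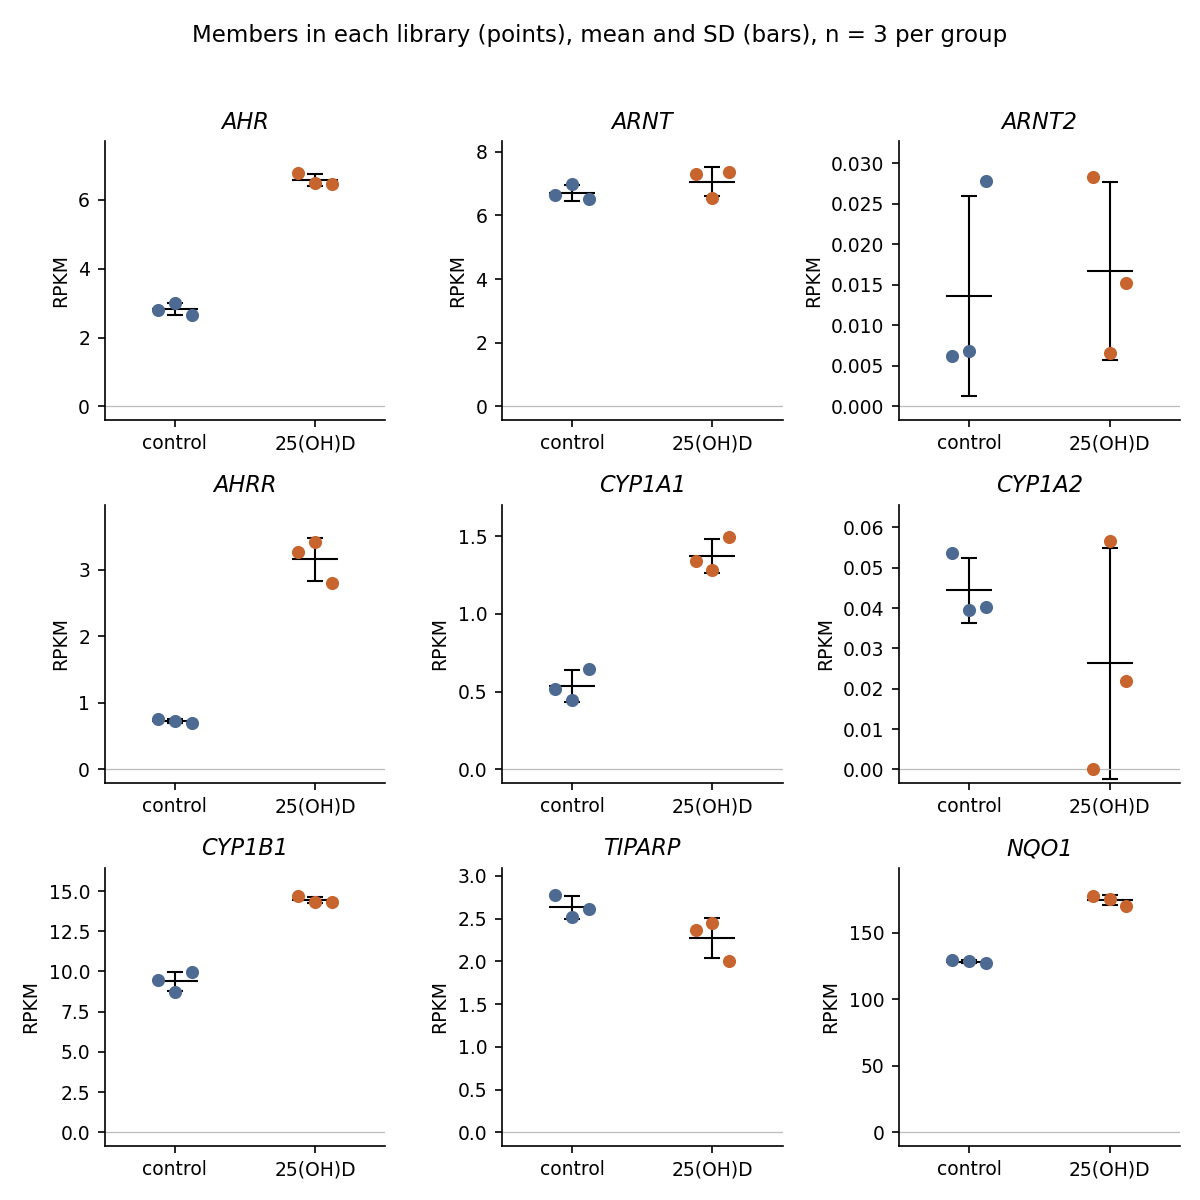
RPKM (vertical axis, from a separate scale in each panel) of the 9 members in the 3 control and 3 25(OH)D libraries, with points for libraries and bars for the mean and SD. AHR, AHRR, CYP1A1, CYP1B1 and NQO1 sit higher in every 25(OH)D library, ARNT overlaps, TIPARP lies slightly lower, and ARNT2 and CYP1A2 stay below 0.06 RPKM throughout.

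The receptor itself, AHR (chromosome 7, 17298622 to 17346152, plus strand, GRCh38), had 762, 747 and 648 counts in control and 1620, 1678 and 1433 in 25(OH)D. All 3 libraries cultured with 25(OH)D stood above all 3 controls. The level rose from 2.83 ± 0.18 to 6.58 ± 0.18 RPKM (SD, n = 3), 2.40-fold, a log2 fold change of 1.26 (SE 0.066, adjusted p = 2.17e-09). In bulk RNA a change in the share of cells that express a gene and a change of its RNA per cell cannot be told apart. A transcript listed as RP11-507K12.1 covers 2373 of the 6661 exon bases of AHR on the same strand, and its counts moved with AHR, from 529 to 631 up to 1202 to 1366 (log2 fold change 1.27, adjusted p = 7.24e-09). Reads on those shared bases cannot be told apart.

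ARNT (chromosome 1, 150809705 to 150876768, minus strand), the partner with which AHR binds DNA, was nearly level. It had 1768, 1696 and 1550 counts in control and 1703, 1652 and 1594 in 25(OH)D. The level was 6.72 ± 0.25 RPKM in control and 7.06 ± 0.45 RPKM in 25(OH)D, and the groups overlapped. The log2 fold change was 0.12 (95% interval -0.018 to 0.25, adjusted p = 0.178), which bounds a rise at 1.19-fold within this fit. ARNT2 (chromosome 15, 80404350 to 80597937, plus strand), a paralogue best known from neurons and kidney that can also pair with bHLH-PAS factors, was at the edge of detection. Its counts were 2, 2 and 8 in control and 8, 2 and 4 in 25(OH)D, at most 0.0283 RPKM. With no filter on low counts its log2 fold change was 0.34 (SE 1.08, adjusted p = 0.873), so no difference was detectable at this depth. ARNT RNA thus made up nearly all of the partner RNA in both groups.

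AHRR (chromosome 5, 304176 to 438291, plus strand) had the largest change of the 7 members tested. It encodes a bHLH-PAS protein that competes with AHR for ARNT and DNA and recruits corepressors. It had 236, 209 and 195 counts in control and 898, 1014 and 713 in 25(OH)D. The groups were far apart, with every 25(OH)D library above every control. The level rose from 0.726 ± 0.028 to 3.15 ± 0.32 RPKM (n = 3), 4.47-fold (95% interval 3.88 to 5.15), a log2 fold change of 2.16 (SE 0.095, adjusted p = 3.32e-10). Of the 18183 genes tested, 230 had a larger log2 fold change. The promoter windows of AHRR, the upstream one printed above with the core in capitals, both held the core. They lie after 304176, where AHRR starts in the count table, so that start has no window here.

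The start of AHRR lies inside PDCD6, a calcium-binding protein gene on the same strand, and 244 exon bases belong to both. PDCD6 rose too, from 1700 to 1889 counts in control to 3797 to 4877 in 25(OH)D (log2 fold change 1.43, adjusted p = 3.30e-11). When the counts that those 244 bases would hold at the density of PDCD6 were taken away, a step added after seeing the data, AHRR kept 150.3 to 187.4 counts in control and 615.4 to 888.6 in 25(OH)D. The log2 ratio of mean CPM was then 2.31. Because PDCD6 rose by less than AHRR, taking its counts away could only raise this ratio. The step also spread the PDCD6 counts evenly over its exons, so it does not show how many AHRR counts were PDCD6 reads. The nearest tested genes with a symbol outside this pair were SDHA, 47476 bases before AHRR, which rose by 0.59 on the log2 scale (adjusted p = 1.25e-07), and EXOC3-AS1, 3207 bases after it, at 0.56 (adjusted p = 0.126). These neighbours were looked up after seeing the data, and their part in the AHRR result was not tested.

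TIPARP (chromosome 3, 156673235 to 156706770, plus strand), a mono-ADP-ribosyltransferase that modifies AHR and shortens its action, did not pass the test. It had 574, 472 and 481 counts in control and 428, 479 and 337 in 25(OH)D. The levels were 2.63 ± 0.13 and 2.27 ± 0.23 RPKM, and the groups were separated only narrowly, with 2.51 RPKM in the lowest control and 2.45 RPKM in the highest 25(OH)D library. The log2 fold change was -0.17 (95% interval -0.37 to 0.036, adjusted p = 0.199). The first promoter window of TIPARP, printed above, held the core in 2 copies, and its other 2 windows held none.

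Its zinc-finger PARP relatives PARP12 and ZC3HAV1, both known from antiviral defence, did rise. PARP12 had 442 to 572 counts in control and 739 to 1012 in 25(OH)D, a log2 fold change of 0.89 (SE 0.087, adjusted p = 1.72e-06). ZC3HAV1 rose by 0.34 (SE 0.044, adjusted p = 2.61e-05).

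The CYP1 enzymes stood at very different levels. CYP1B1 (chromosome 2, 38066973 to 38109902, minus strand), which turns oestradiol into a catechol oestrogen, was the most strongly expressed. It had 2327, 1954 and 2185 counts in control and 3161, 3341 and 2865 in 25(OH)D. The level rose from 9.38 ± 0.61 to 14.4 ± 0.20 RPKM without overlap, 1.59-fold, a log2 fold change of 0.67 (SE 0.055, adjusted p = 3.62e-07). The antisense transcript CYP1B1-AS1 shares 678 exon positions with it on the other strand and had a log2 fold change of 0.13 (adjusted p = 0.558).

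CYP1A1 (chromosome 15, 74719542 to 74725610, minus strand), the most widely used readout of AHR activity, was far weaker. It had 73, 57 and 81 counts in control and 165, 171 and 171 in 25(OH)D. All 25(OH)D libraries lay above the controls, and the 25(OH)D mean of 1.37 ± 0.11 RPKM compares with 0.537 ± 0.101 RPKM in control. The log2 fold change was 1.40 (SE 0.18, adjusted p = 2.79e-05), with a 95% interval of 2.02-fold to 3.44-fold that reflects the low counts. Per length, CYP1A1 after 25(OH)D still stood far below CYP1B1, at 1.37 against 14.4 RPKM.

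CYP1A2 (chromosome 15, 74748844 to 74756202, plus strand), a liver enzyme that lies head to head with CYP1A1, was at the edge of detection. It had 6, 4 and 4 counts in control and 0, 6 and 2 in 25(OH)D, at most 0.0567 RPKM. With no filter on low counts its log2 fold change was -0.68 (SE 1.20, adjusted p = 0.753), and no difference was detectable at this depth. Of the nearest tested gene on the other side, CSK, the level fell by 0.26 on the log2 scale (adjusted p = 0.00964), a lookup made after seeing the data.

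NQO1 (chromosome 16, 69706996 to 69726951, minus strand) encodes a quinone reductase and is a target of both AHR and NRF2, the oxidative stress factor. It was by far the most abundant member. It had 17201, 15551 and 15105 counts in control and 20716, 22149 and 18436 in 25(OH)D. The level rose from 128.3 ± 0.98 to 174.5 ± 3.8 RPKM without overlap, 1.40-fold, a log2 fold change of 0.49 (SE 0.034, adjusted p = 5.08e-08). A transcript of the other strand, CTD-2033A16.1, whose 575 exon bases all lie on exons of NQO1, moved in the same direction (log2 fold change 0.74, adjusted p = 1.63e-08). Its level, 113.6 RPKM in control and 183.5 RPKM in 25(OH)D, was near that of NQO1. The strand setting of the counts is not given, so its counts may be reads of NQO1.

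**Figure D2:**
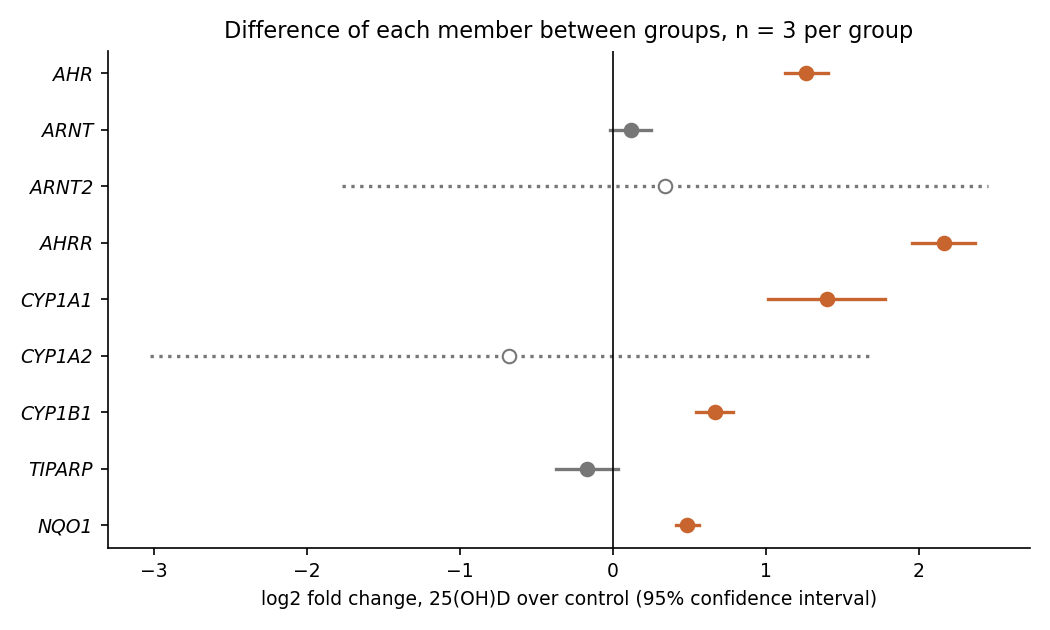
Log2 fold change of 25(OH)D over control (horizontal axis) with its 95% confidence interval for each member, 3 libraries per group. Filled orange points passed the test, filled grey points did not, and the open points with dotted intervals are ARNT2 and CYP1A2, which come from the fit with no filter on low counts. AHRR lies furthest to the right at 2.16, and the intervals of ARNT and TIPARP include 0.

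By RPKM the order in control was NQO1, CYP1B1, ARNT, AHR, TIPARP, AHRR, CYP1A1, CYP1A2 and ARNT2. Of these neighbours only AHR and TIPARP overlapped, at 2.67 to 3.02 and 2.51 to 2.78 RPKM. In 25(OH)D the order was NQO1, CYP1B1, ARNT, AHR, AHRR, TIPARP, CYP1A1, CYP1A2 and ARNT2. ARNT and AHR then overlapped, at 6.54 to 7.35 and 6.47 to 6.79 RPKM, and so did CYP1A2 and ARNT2. AHR thus went from below the level of its partner to beside it, and AHRR moved past TIPARP.

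The members did not keep their proportions to the receptor. AHRR per AHR was 0.269, 0.243 and 0.261 in control and 0.481, 0.524 and 0.432 in 25(OH)D, as ratios of RPKM, so the repressor rose by more than the receptor. The difference was 0.89 on the log2 scale. ARNT and ARNT2 together per AHR fell from 2.38 ± 0.067 to 1.08 ± 0.066 (log2 difference -1.15). The partner RNA was above the receptor RNA in every control library, and near parity with it in every 25(OH)D library. CYP1B1 per AHR went from 3.34 ± 0.42 to 2.19 ± 0.028 (log2 difference -0.60), and TIPARP per AHR from 0.936 ± 0.089 to 0.345 ± 0.033 (-1.44). In each of these 4 ratios the groups did not overlap. Each had p = 0.1 by a two-sided exact permutation test of 3 against 3 libraries, the smallest this design allows. The adjusted value over the 4 ratios was 0.1. All 4 are divided by AHR, so they are not independent results, and each carries the rise of AHR given above. For ARNT and TIPARP, which did not pass the test, the lower ratio mostly restates that rise. The ratio of ARNT2 to ARNT was not computed, because ARNT2 did not exceed 3 counts in every library.

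**Figure D3:**
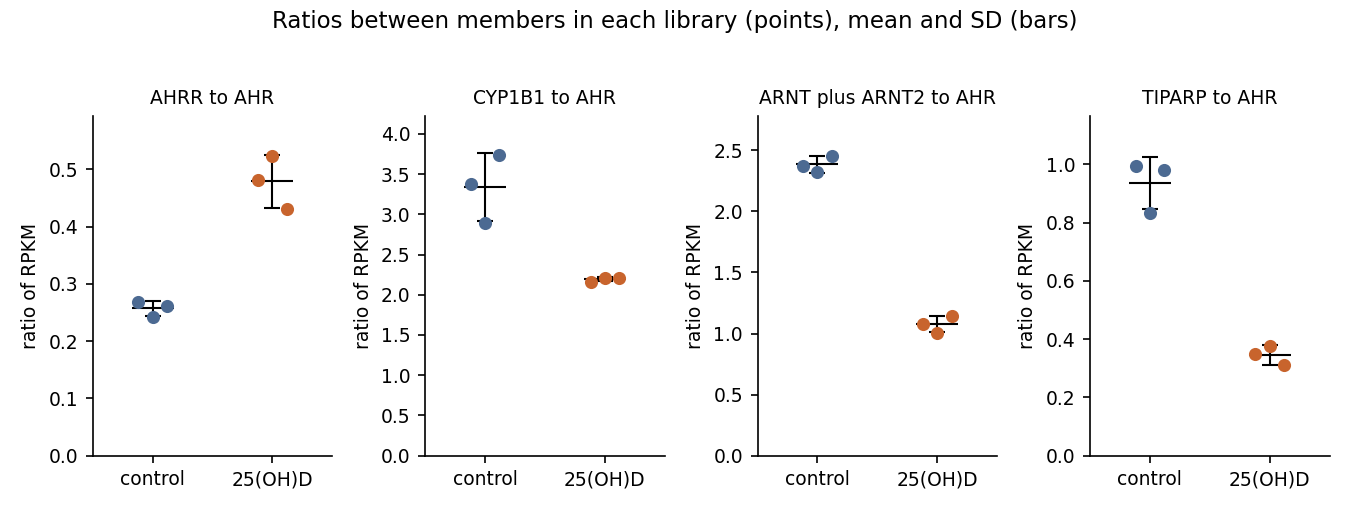
Ratio of RPKM between members (vertical axis, from 0 in each panel) in each control and 25(OH)D library, with points for libraries and bars for the mean and SD. The ratio of AHRR to AHR is higher in all 3 25(OH)D libraries (0.432 to 0.524) than in control (0.243 to 0.269), and the other 3 ratios are lower.

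The genes that hold the receptor in the cytosol or turn it over moved little. Of 7 listed, all were tested, none rose and 3 fell, beside 17.3% higher and 16.5% lower of all genes tested. The median log2 fold change was -0.14 against -0.011 over all genes. The 3 that fell were the HSP90 genes HSP90AA1 (-0.22, adjusted p = 4.26e-05) and HSP90AB1 (-0.14, adjusted p = 0.00203) and PTGES3, which encodes p23 (-0.26, adjusted p = 0.000212). HSP90AA1 had 323892 to 353120 counts in control and 242326 to 276752 in 25(OH)D. Scaled for library size it stood at 8637 ± 204 CPM in control and 7394 ± 179 CPM in 25(OH)D, and the groups did not overlap. Both HSP90 genes have processed pseudogenes, to which some of their reads may have been assigned.

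Among 15 other bHLH-PAS genes and the p160 coactivators, 9 were tested, 2 rose and 1 fell, with a median of -0.0046. The shares over all genes tested were 17.3% higher and 16.5% lower. NCOA1, the p160 coactivator SRC-1, rose from 35.3 ± 1.2 to 44.7 ± 0.4 CPM (log2 fold change 0.34, adjusted p = 0.000249). EPAS1, the hypoxia factor HIF-2α, which also pairs with ARNT, rose by 0.30 (adjusted p = 0.000817), while HIF1A stood at -0.0046 (adjusted p = 0.970). NPAS2, a circadian partner of ARNTL, fell by 0.92 on 22 to 95 counts (adjusted p = 0.0247), a call that was lost when control 1, control 2 or 25(OH)D 1 was left out (adjusted p 0.0648 to 0.109). With upper-quartile factors or library sizes alone, 3 genes of the list fell.

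Of 12 coregulators, all were tested, 1 rose and 4 fell, with a median of -0.041, beside 17.3% higher and 16.5% lower over all genes. CALCOCO1, a coactivator that binds bHLH-PAS proteins, rose by 0.28 (adjusted p = 0.00200). NRIP1, a corepressor of many nuclear factors, fell by 0.30 (adjusted p = 4.90e-05). The acetyltransferase CREBBP (-0.24), the chromatin remodeller SMARCA4 (-0.19) and SP1 (-0.22), a factor that works beside AHR at the CYP1A1 promoter, fell as well.

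Other genes reported as AHR targets in various cells went mostly the other way from the 5 members that rose. Of 30 listed, 20 were tested, 3 rose and 13 fell, and the median log2 fold change was -0.70. Of all genes tested, 17.3% rose and 16.5% fell. The 3 that rose were AREG, CD274 and HES1. AREG, an EGF receptor ligand, had 162 to 192 counts in control and 2475 to 2968 in 25(OH)D, a log2 fold change of 4.08 (SE 0.093, adjusted p = 3.27e-13). CD274, which encodes the checkpoint ligand PD-L1, had 16 to 30 counts in control and 74 to 134 in 25(OH)D (log2 fold change 2.17, adjusted p = 7.41e-05), and HES1, a Notch target, rose by 0.83 (adjusted p = 1.85e-08).

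Among the 13 that fell were several enzymes. ALDH3A1, an aldehyde dehydrogenase, fell from 70 to 102 counts down to 14 to 26 (log2 fold change -2.02, adjusted p = 0.000171). XDH, xanthine dehydrogenase, fell from 148 to 175 counts down to 10 to 18 (-3.39, adjusted p = 7.90e-08). The 6 UGT1A glucuronosyltransferases fell by 1.04 to 1.20 on the log2 scale (largest adjusted p 5.02e-06), but they share 1478 exon bases and their counts are not independent. Counted as 1 gene, they left 15 genes tested, 3 higher and 8 lower, with a median of -0.25. STC2, a secreted glycoprotein, fell from 1136 to 1230 counts down to 279 to 334 (-1.82, adjusted p = 1.40e-10), and the cyclin gene CCNG2 fell by 1.70 (adjusted p = 4.38e-10). CYP1A1 and CYP1B1 thus rose in the same libraries in which ALDH3A1 and the UGT1A genes fell.

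The enzymes and carriers that supply tryptophan-derived ligands were mostly level or weak. Of 14 listed, 9 were tested, 1 rose and 3 fell, with a median of -0.087, beside 17.3% higher and 16.5% lower over all genes. KYNU, kynureninase, which consumes kynurenine, rose by 0.44 from 291 to 307 counts in control to 314 to 434 in 25(OH)D (adjusted p = 0.00910). This call was lost with limma on log2 RPKM, at a pseudocount of 1 (0.13, adjusted p = 0.101) and of 0.1 (0.32, adjusted p = 0.133), which left no gene of the list higher. TDO2, which opens the tryptophan ring to start the kynurenine route, fell from 53 to 99 counts down to 6 to 18 (-2.59, adjusted p = 0.000156). SLC3A2, the heavy chain of the tryptophan carrier LAT1, fell by 0.52 (adjusted p = 4.13e-07), and KMO, kynurenine monooxygenase, by 0.33 (adjusted p = 0.0127).

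Since NQO1 also answers to NRF2, the other NRF2 targets were read beside it. Of 19 listed, 15 were tested, 7 rose and 1 fell, with a median of 0.24. TXNRD1, thioredoxin reductase, rose by 0.71 (adjusted p = 1.10e-09) and GCLM, the modifier subunit of glutathione synthesis, by 0.75 (adjusted p = 0.000177). NQO2, the paralogue of NQO1, rose by 0.60 (adjusted p = 1.76e-05). SLC7A11, the cystine carrier, fell from 2752 to 3101 counts down to 575 to 635 (-2.09, adjusted p = 2.13e-12). HMOX1 and GCLC, both much used NRF2 readouts, stood at -0.15 (adjusted p = 0.633) and 0.021 (adjusted p = 0.940), and NFE2L2, which encodes NRF2, at 0.011 (adjusted p = 0.925). Over all pathway lists, 72 of 96 distinct genes were tested, and 16 were higher and 25 lower. Over all genes tested 17.3% were higher and 16.5% lower. The 25 lower genes include the 6 UGT1A genes, counted separately although their counts are not independent.

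**Figure D4:**
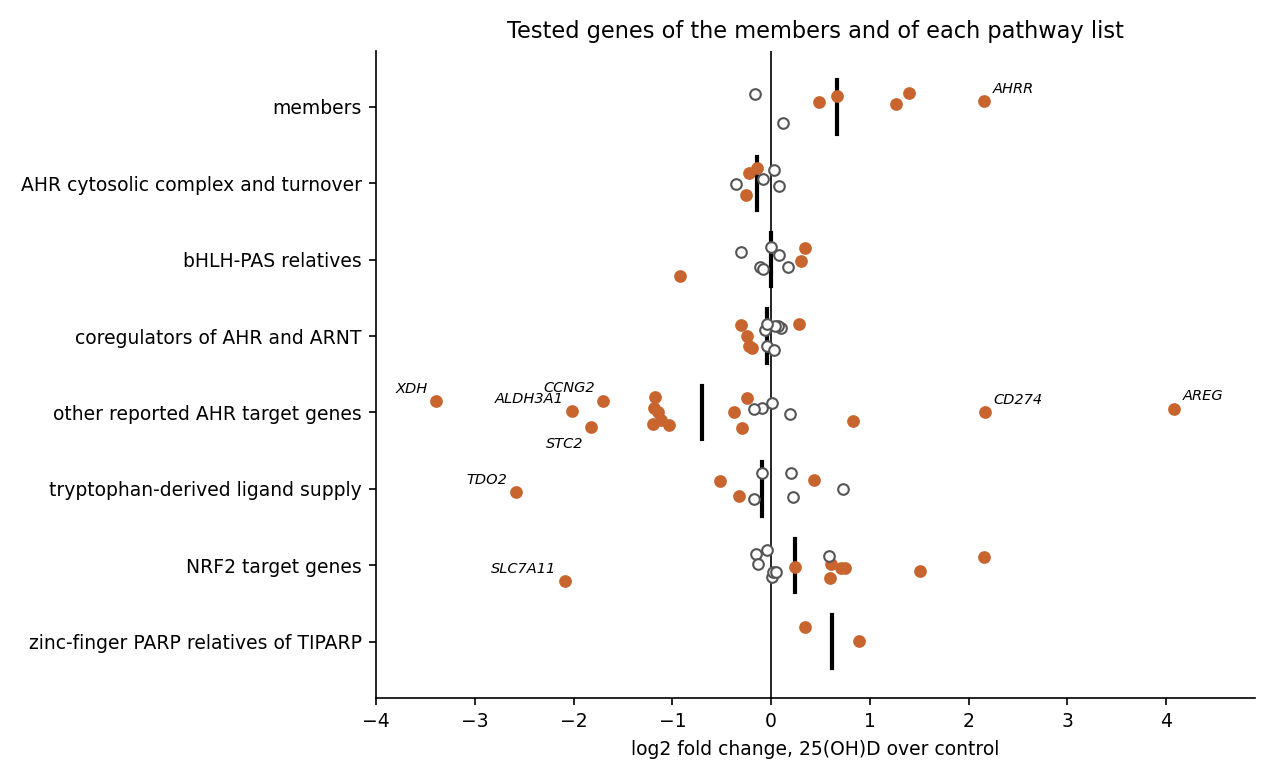
Log2 fold change of 25(OH)D over control (horizontal axis) for each tested gene of the members and of the 7 pathway lists, with filled points for genes at an adjusted p under 0.05, open points for the others and a black bar at each list's median. The members' median lies at 0.67, that of the other reported AHR target genes at -0.70, or at -0.25 with the UGT1A genes counted as 1. Names mark some of the genes with the largest changes.

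The genes whose pattern over the 6 libraries came nearest to a member were found by the root mean square difference of log2 CPM, each gene centred on its own mean. For AHR these were PALMD (0.0375), SLC35A3 (0.0400) and ITPR2 (0.0521), which rose by 1.29, 1.24 and 1.22 on the log2 scale. For AHRR they included the purinergic receptor P2RY2 (0.0914) and PCTP (0.0963). For CYP1A1 they were the water and glycerol channel AQP3 (0.0904), KLF17 (0.103) and AGPAT1 (0.128). None of the 3 nearest genes of each was a member, and the likeness is a description over 6 libraries.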

How the data were processed

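The libraries were stranded, paired-end mRNA sequencing of MDA-MB-453 cells, grouped by their labels. The authors deposited raw read counts for each gene and, in another table, RPKM, which are the same counts divided by gene length and library total, as every value was checked to be. The submitters' processing notes name Trimmomatic 0.36, featureCounts, Subread 1.5.1, edgeR 3.12.1 and GRCh38. The aligner, the annotation release and the strand setting are not given in the sources used here. Of 45339 counts from 1 to 10, 68.5% were even, so both mates of a pair may have been counted, and genes that share exons may each have received the same reads. The floors of 3 counts cover counting error only, while SEs and 95% intervals come from the edgeR fit and include the spread between libraries.

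The counts entered edgeR 4.0.16 (R 4.3.3), with TMM factors, the package's low-count filter (minimum count 10) and the quasi-likelihood test without covariates, with Benjamini-Hochberg adjustment over 18183 genes. The script was tested on simulated data. Ratios were compared by an exact permutation test in scipy 1.17.1. Alternatives were other scaling factors, other filters, DESeq2 1.42.0, limma 3.58.1 on log2 RPKM with a pseudocount of 1 or 0.1, a replicate block and leaving out each library. Promoter windows came from RefSeq. ME1, IDO1, IDO2, SIM2, GSTA1, FGF21 and CDH5 of the lists were not analysed here, and CCBL1 and CCBL2 were matched as KYAT1 and KYAT3.

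The members and the lists were chosen with earlier results of these data known. The rule named all 9 members, in each list the gene with the smallest p in each direction among those called, CD274 and XDH, genes sharing exon bases with a member, and the 3 nearest genes by pattern to AHR, AHRR and CYP1A1. Some genes that the rule names are not reported here. Other list genes were named after their values were seen, as background or to account for counts of few genes.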

Additional observations from a re-analysis of the deposited data

How the results depend on the processing

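The 7 tested members kept their direction and their side of the threshold in all 112 results from 16 alternatives each. Over these the log2 fold change ran from 0.99 to 1.32 for AHR, 1.26 to 2.25 for AHRR, 0.63 to 1.56 for CYP1A1, 0.57 to 0.72 for CYP1B1, 0.44 to 0.51 for NQO1, 0.06 to 0.18 for ARNT and -0.21 to -0.079 for TIPARP. The lowest values of AHRR and CYP1A1 came from log2(RPKM + 1), whose pseudocount shrinks the change of low genes. Of the named genes, 375 results kept their call and 8 lost it, and none changed direction. The 8 were those of NPAS2 under limma and without control 1, control 2 or 25(OH)D 1, of KYNU under limma at both pseudocounts (adjusted p = 0.101 and 0.133), and of TP63 under limma with log2(RPKM + 1) (adjusted p = 0.10). At the study's limits the genes were 731 higher and 478 lower, against 441 and 225 with a mean of at least 50 counts, 243 and 70 with log2(RPKM + 1), 317 lower with log2(RPKM + 0.1), and 753 lower with no filter. Over all genes, 3138 were higher and 3004 lower, 51.1% higher of those called, against 2705 and 3613 with upper-quartile factors (42.8%), 2689 and 3667 with library sizes alone (42.3%), 2391 and 3167 with log2(RPKM + 1) (43.0%), and 2408 and 3169 with log2(RPKM + 0.1) (43.2%). Leaving out 1 library gave 2742 to 3031 higher and 2349 to 2666 lower. Same-numbered libraries did not deviate together (correlations -0.0721, -0.0120 and -0.0460 over 18183 genes), so no pairing by number was visible. Whether same-numbered cultures were handled together is not stated in the sources used here. A replicate block gave 3057 higher and 2896 lower genes, 5 members higher and none lower. Depth limits ARNT2 and CYP1A2, at 0 to 8 counts, to no statement on a change.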
